A study of Mus musculus with 12 samples.

Results

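The genes described are 10 members of the opposing enzyme families that make and break fatty acyl-CoA. These are the long-chain acyl-CoA synthetases Acsl1, Acsl3, Acsl4 and Acsl5, and the acyl-CoA thioesterases Acot1, Acot2, Acot3, Acot4, Acot12 and Acot13. All 10 genes were chosen by name, with earlier results of these data known. They are 10 of the 48795 genes in the deposited table. Livers from 4-month-old female mice on normal chow were collected for RNA sequencing, in groups of 3 mice: Nts+/+ fed ad libitum, Nts+/+ fasted for 22 h, Nts-/- fed ad libitum and Nts-/- fasted for 22 h. Nts encodes neurotensin, a gut peptide, and the knockout is of the whole body, with the mice of both genotypes being littermates bred from heterozygous parents. The study asked how neurotensin deficiency bears on liver metabolism in the fed and the fasted state. All libraries carry a single batch label, and none of the mice received any other agent.

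Long-chain fatty acids enter metabolism only after an acyl-CoA synthetase has joined them to coenzyme A at the cost of ATP, and the acyl-CoA formed can be oxidized, stored as triglyceride or built into membranes. Acyl-CoA thioesterases run the reverse step, hydrolysing acyl-CoA to the free fatty acid and coenzyme A, in several compartments of the cell. The fasted liver takes up fatty acids released by adipose tissue, oxidizes them and makes ketone bodies, and the nuclear receptor PPARα drives many of the genes involved, while the fed liver synthesizes fatty acids under the control of SREBP and ChREBP.

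Counts per library ranged from 21999647 to 45273069, and 13812 genes, all 10 members among them, had enough counts to be tested. Levels are given in TMM-normalized CPM, which is counts relative to the library's total after a scaling that evens out composition between libraries, and levels of different genes are ordered only per kb of transcript. The targeted gene did not bear out the labels. Nts was at 0 counts in all 6 libraries labelled Nts+/+. It had 46, 40 and 15 counts in the fed and 12, 4 and 18 counts in the fasted libraries labelled Nts-/-. The paper places neurotensin in the central nervous system and in cells of the small intestine. Whether the counts come from the targeted allele or from exchanged labels was not tested. Every genotype direction given here is therefore that of the labels. The hepatocyte markers Alb, Ttr, Apoa1, Fgb, Cps1 and Tat summed to between 107300 and 139200 CPM in every library, and the defining markers of adipocytes and of muscle stayed at or near 0. Sums of non-parenchymal markers differed with feeding in Nts+/+ livers. The summed level of 5 cholangiocyte markers was 34.1 to 49.7 CPM in fed and 13.7 to 26.3 CPM in fasted Nts+/+ livers. That of 5 sinusoidal endothelial markers was 123 to 179 CPM and 106 to 114 CPM. For 6 Kupffer cell markers it was 408 to 483 CPM and 201 to 349 CPM. In the Nts-/- livers the cholangiocyte markers went from 33.4 to 35.7 CPM in fed to 15.1 to 29.6 CPM in fasted mice, whereas the Kupffer cell ranges overlapped, at 250.3 to 349 CPM and 261 to 404 CPM. Summed stellate cell markers were at 222 to 244 CPM and 184 to 209 CPM, and lymphocyte markers at 15.5 to 16.4 CPM and 10.0 to 11.0 CPM, in fed and fasted Nts+/+ livers. In Nts-/- livers both overlapped, stellate cell markers at 188 to 265 CPM and 189 to 202 CPM and lymphocyte markers at 13.4 to 15.1 CPM and 10.2 to 22.0 CPM, while endothelial markers were at 142 to 156 CPM and 103 to 124 CPM. Single markers could differ from their sum: 1 of the 5 endothelial markers, Lyve1, rose in fasted Nts+/+ livers, by 1.17 on the log2 scale. The cholangiocyte sum was carried by Spp1, at 10.7 to 43.5 CPM, with Sox9 next at 1.70 to 4.84 CPM. Of 4 pancreas markers 1, Cela1, was detected above trace level. The part of all these in the results was not tested, and in bulk liver fewer cells of a type and less RNA per cell cannot be told apart.

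Acot1, Acot2, Acot3 and Acot4 lie side by side on mouse chromosome 12 and are close copies of each other, which matters for how their reads can be told apart. On build GRCm38, Acot2 spans chr12:83987861-83993873, Acot1 chr12:84009502-84017670, Acot4 chr12:84038379-84044723 and Acot3 chr12:84052144-84059565. Over the aligned coding sequence, Acot1 was identical to Acot2 at 95.2% of bases, to Acot3 at 83.9% and to Acot4 at 74.8%. A 90-base coding stretch shows how near the copies are. It starts at coding base 397 of Acot1, Acot3 and Acot4 and at coding base 520 of Acot2, and capitals mark bases that differ from Acot1.
Acot1: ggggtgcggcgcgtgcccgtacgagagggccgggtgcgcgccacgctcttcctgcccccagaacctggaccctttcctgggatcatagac
Acot2: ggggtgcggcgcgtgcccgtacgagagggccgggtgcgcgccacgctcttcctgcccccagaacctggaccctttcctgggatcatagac
Acot3: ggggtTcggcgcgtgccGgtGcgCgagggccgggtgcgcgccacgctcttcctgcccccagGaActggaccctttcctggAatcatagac
Acot4: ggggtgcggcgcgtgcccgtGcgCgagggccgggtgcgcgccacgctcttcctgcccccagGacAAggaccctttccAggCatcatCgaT

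Acot1 and Acot2 had 0 differences here, while Acot3 had 7 and Acot4 had 9. Of the 90-base stretches compared between Acot1 and Acot2, the start of the Acot1 coding sequence was the one with the most differences, 11 of 90 bases. Acot2 carries 123 further coding bases ahead of that point, in the part of the gene that encodes its mitochondrial presequence. The next lines start at coding base 1 of Acot1 and coding base 124 of Acot2, again with differences from Acot1 in capitals.
Acot1: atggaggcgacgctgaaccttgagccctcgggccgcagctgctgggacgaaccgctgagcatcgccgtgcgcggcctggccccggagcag
Acot2: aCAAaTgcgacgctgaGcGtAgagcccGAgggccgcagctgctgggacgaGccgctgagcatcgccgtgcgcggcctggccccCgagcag

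Of all 50-base windows of the Acot1 transcript, 32.0% also occurred in another of the 12 transcripts compared (the members, Acot5 and Acot6), and 23.6% occurred in Acot2. The shares were 25.2% for Acot2, 9.84% for Acot3 and 4.43% for Acot4, and 0 for Acot12, Acot13 and the 4 synthetases. Reads from the shared windows were divided between the genes by estimation, and the deposited counts of Acot1, Acot2, Acot3 and Acot4 were more than 0.001 from a whole number in all 12 libraries. So were those of Acot12, which an expressed gene overlaps (4833422C13Rik, at 0.507 to 1.47 CPM). Acot3 and Acot4 are also overlapped by a gene outside the cluster's copies (4732463B04Rik, at 0.635 to 4.08 CPM). Acsl3 had such fractional counts in 9, Acsl1 in 8 and Acsl4, Acsl5 and Acot13 in 0 libraries. Levels of Acot1, Acot2, Acot3 and Acot4 are therefore uncertain where they are set against each other. The summed level of Acot1 to Acot6, which does not depend on how reads were divided within the cluster, was 300.1 ± 117 CPM (SD, n = 3) in fed and 1019 ± 148 CPM in fasted Nts+/+ livers, a 3.39-fold difference of means. In Nts-/- livers it was 257 ± 42.6 CPM and 862 ± 221 CPM, a 3.36-fold difference. The ranges of fed and fasted mice did not overlap in either genotype.

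The fasting comparison asks which steps of acyl-CoA formation and hydrolysis differ in transcript level between the fed and the fasted liver. Fasted livers of both genotypes had several-fold more Acot1 and Acot2, about double the Acot12, more Acot4, and much less Acsl3 than fed livers. In Nts+/+ livers 6 of the 10 members passed an adjusted p of 0.05 in edgeR's quasi-likelihood test, with Acot1, Acot2, Acot4 and Acot12 higher and Acsl3 and Acot13 lower in fasted mice. Of all genes tested, 18.1% passed in that comparison, 8.91% higher and 9.19% lower. In Nts-/- livers 5 of 10 passed against 16.8% of all genes (7.7% higher, 9.14% lower), and these were the same genes without Acot13. Acsl1, Acsl4, Acsl5 and Acot3 passed in neither genotype. At an unadjusted p under 0.05 the counts were 7 and 8 of 10, beside 32.5% and 31.7% of all genes. The median log2 fold change of the 10 members was 0.56 in Nts+/+ and 0.39 in Nts-/- livers, beside medians of -0.00318 and -0.0108 over all genes tested.

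**Figure D1:**
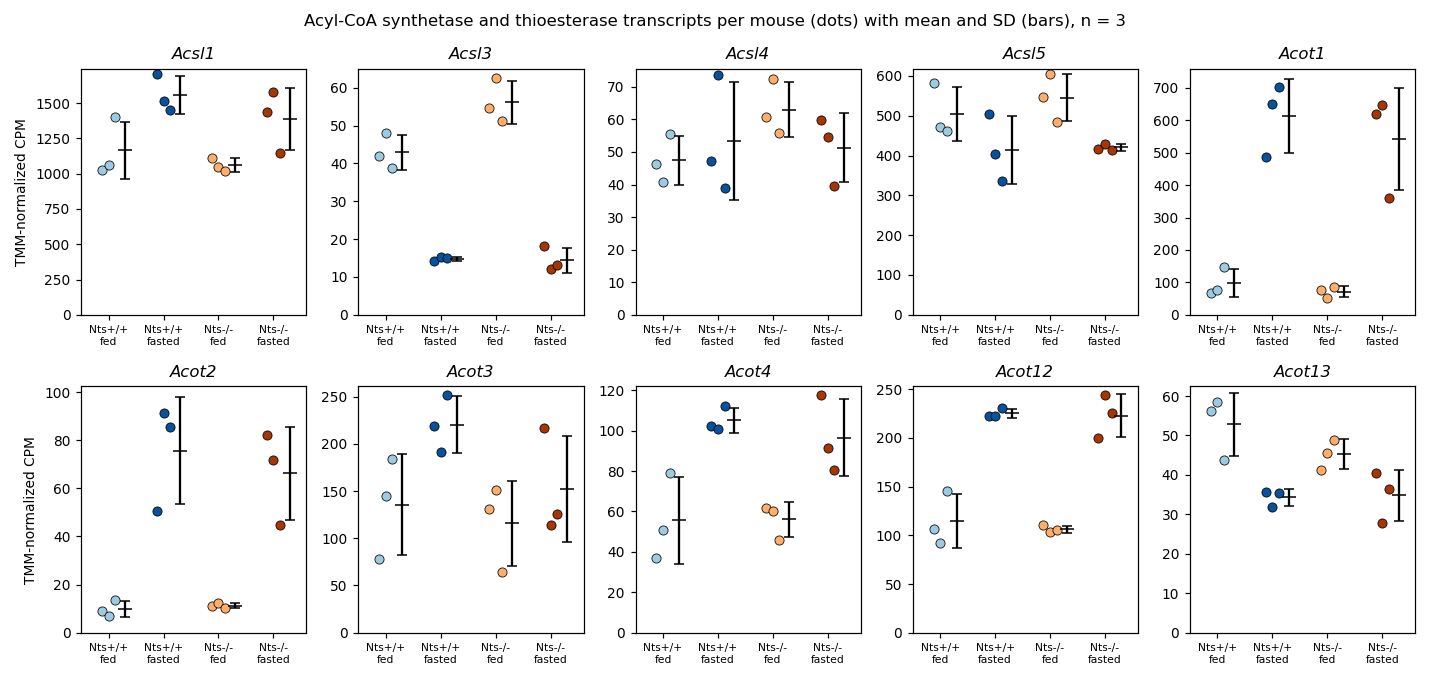
TMM-normalized CPM (vertical axes, from 0) of the 10 genes in each mouse (dots) of the 4 groups, with the mean and SD of 3 mice as bars. Acot1, Acot2, Acot4 and Acot12 lie higher and Acsl3 lower in all fasted mice than in all fed mice of the same genotype, while fed and fasted mice overlap for Acsl4.

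Acot1, the cytosolic long-chain thioesterase, was at 68.3, 76.5 and 147 CPM in the fed and 486, 650 and 703 CPM in the fasted Nts+/+ mice. In Nts-/- mice it was at 75.7, 52.7 and 84.4 CPM fed and 618, 648 and 362 CPM fasted. The lowest fasted mouse lay more than 2-fold above the highest fed mouse in each genotype. Acot1 rose by a log2 fold change of 2.66 ± 0.33 (SE) in Nts+/+ livers, adjusted p = 0.000409, and of 2.94 ± 0.33 in Nts-/- livers, adjusted p = 0.000179 (edgeR's quasi-likelihood test). These are folds of 6.31 and 7.65.

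Acot2, the mitochondrial matrix counterpart of Acot1, was at 9.01, 7.10 and 13.4 CPM in fed and 50.4, 91.2 and 85.5 CPM in fasted Nts+/+ mice. The Nts-/- values were 10.9, 12.3 and 10.3 CPM fed and 82.1, 71.9 and 44.6 CPM fasted. Again no fasted mouse came near a fed mouse. The log2 fold changes in edgeR's quasi-likelihood test were 2.95 ± 0.30 (adjusted p = 0.000158) and 2.57 ± 0.30 (adjusted p = 0.000235). The Acot1 to Acot2 ratio of CPM, given to compare groups and not the level of one gene with the other, was 9.76 ± 1.89 and 8.33 ± 1.26 in fed and fasted Nts+/+ mice and 6.48 ± 2.00 and 8.22 ± 0.75 in Nts-/- mice, with overlapping ranges within each genotype. Their summed level was 107 ± 46.2 CPM in fed and 688 ± 134 CPM in fasted Nts+/+ livers and 82.1 ± 15.4 and 609 ± 176 CPM in Nts-/- livers, a description with no test of its own.

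Acot3 and Acot4 encode peroxisomal thioesterases, Acot3 for long-chain acyl-CoA and Acot4 for succinyl-CoA and related esters. Acot4 was at 37.0, 50.6 and 79.2 CPM in fed and 103, 100.9 and 112 CPM in fasted Nts+/+ mice, and at 61.7, 60.3 and 46.1 CPM fed and 118, 91.5 and 80.5 CPM fasted in Nts-/- mice. The groups did not overlap, and Acot4 rose by 0.92 ± 0.23 (adjusted p = 0.0174) and 0.78 ± 0.23 (adjusted p = 0.0369) on the log2 scale in edgeR's quasi-likelihood test. Both calls were close to the threshold: that in Nts+/+ livers was lost without mouse 254 (adjusted p = 0.0580) or 257 (0.0687), and that in Nts-/- livers without any 1 of mice 277, 303, 319, 284 and 290, at adjusted p of 0.0684 to 0.133.

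Acot3 varied widely among the fed mice, at 78.1, 145 and 184 CPM in Nts+/+ and 131, 151 and 64.8 CPM in Nts-/- livers. Fasted values were 219, 191 and 252 CPM and 217, 114 and 126 CPM. The Nts+/+ groups did not overlap, with the lowest fasted mouse just above the highest fed one, but the Nts-/- groups did. The log2 differences of 0.70 ± 0.38 (adjusted p = 0.227) and 0.39 ± 0.38 (adjusted p = 0.519) did not pass edgeR's quasi-likelihood test.

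Acot12, a cytosolic enzyme that hydrolyses acetyl-CoA, was at 107, 92.0 and 145 CPM in fed and 223, 223 and 231 CPM in fasted Nts+/+ mice, and at 110, 104 and 105 CPM fed and 200, 244 and 225 CPM fasted in Nts-/- mice. No fasted mouse overlapped a fed one, and the folds were 1.97 and 2.10. In edgeR's quasi-likelihood test Acot12 rose by 0.98 ± 0.15 (adjusted p = 0.00102) and 1.07 ± 0.15 (adjusted p = 0.000463) on the log2 scale.

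Acot13, a small hotdog-fold thioesterase associated with mitochondria and also called Them2, was the only thioesterase of the 6 that fell. It was at 56.2, 58.6 and 43.8 CPM in fed and 35.7, 31.9 and 35.5 CPM in fasted Nts+/+ mice, and at 41.2, 45.6 and 48.8 CPM fed and 40.5, 27.8 and 36.3 CPM fasted in Nts-/- mice. Fed and fasted mice did not overlap in either genotype, although in Nts-/- livers the gap between 40.5 and 41.2 CPM was small. Acot13 fell by 0.62 on the log2 scale (SE 0.15, adjusted p = 0.0123, edgeR's quasi-likelihood test) in Nts+/+ livers, a call lost without mouse 254 (adjusted p = 0.0549), 257 (0.0520) or 282 (0.0631). The Nts-/- difference was -0.38 ± 0.15 with an adjusted p = 0.102 in the same edgeR test. The 2 differences were not shown to be unlike each other, since Acot13 gave 0.25 ± 0.21 for the difference of the fasting responses, adjusted p = 0.901 (edgeR).

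Acsl3, the synthetase of the endoplasmic reticulum and of growing lipid droplets, was the synthetase that changed. It was at 41.9, 48.1 and 38.9 CPM in fed and 14.3, 15.3 and 14.9 CPM in fasted Nts+/+ mice. In Nts-/- mice it was at 54.7, 62.5 and 51.3 CPM fed and 18.1, 12.0 and 13.1 CPM fasted. The fasted groups lay far below the fed groups, and Acsl3 fell by 1.53 (SE 0.15, adjusted p = 6.05e-05) and 1.96 (SE 0.15, adjusted p = 8.13e-06) on the log2 scale in edgeR's quasi-likelihood test, to 0.345 and 0.256 of the fed level. Utp14b, a gene whose span overlaps that of Acsl3, was at 8.17 ± 1.29 CPM in fed and 4.65 ± 1.82 CPM in fasted Nts+/+ livers. In Nts-/- livers Utp14b was at 16.4 ± 11.5 CPM and 5.44 ± 1.68 CPM. The part of Utp14b in the Acsl3 result was not tested.

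Acsl1, the main synthetase of the liver and a PPARα target, was at 1029, 1065 and 1401 CPM in fed and 1708, 1516 and 1451 CPM in fasted Nts+/+ mice. In Nts-/- mice it was at 1114, 1045 and 1019 CPM fed and 1436, 1580 and 1150 CPM fasted. Every fasted mouse was above every fed mouse of its genotype, yet the differences of 0.42 ± 0.16 (adjusted p = 0.0862) and 0.39 ± 0.16 (adjusted p = 0.111) on the log2 scale did not pass edgeR's quasi-likelihood test. Without mouse 323, the fed Nts+/+ mouse with 1401 CPM, Acsl1 passed at 0.58 and adjusted p = 0.0283 (edgeR). It also passed in both genotypes by the DESeq2 Wald test, at 0.43 (adjusted p = 0.0331) and 0.41 (adjusted p = 0.0480).

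Acsl5, which channels fatty acids toward triglyceride at the endoplasmic reticulum and mitochondria, was at 583, 472 and 461 CPM in fed and 504, 404 and 336 CPM in fasted Nts+/+ mice, with overlap. In Nts-/- mice it was at 547, 604 and 485 CPM fed and 417, 430.1 and 415 CPM fasted, without overlap. The log2 differences were -0.29 ± 0.16 (adjusted p = 0.237) and -0.37 ± 0.16 (adjusted p = 0.125) in edgeR's quasi-likelihood test. Acsl4, which prefers arachidonic acid, was at 46.3, 40.6 and 55.5 CPM in fed and 47.2, 73.7 and 39.0 CPM in fasted Nts+/+ mice, and at 60.7, 72.3 and 56.0 CPM fed and 59.8, 54.7 and 39.5 CPM fasted in Nts-/- mice. Fed and fasted mice overlapped in both genotypes, and the differences had opposite signs, 0.17 ± 0.22 (adjusted p = 0.649) and -0.30 ± 0.22 (adjusted p = 0.398) by edgeR.

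Counting groups that do not overlap rather than adjusted p, 6 members were higher and 2 lower in fasted Nts+/+ mice, beside 18.1% and 17.9% of all genes tested. In Nts-/- mice 5 were higher and 3 lower, beside 17.1% and 18.1%. Among the fed Nts+/+ mice, mouse 323 was the highest of the 3 for 7 of the 10 members and the lowest for 3. Its level of the PPARα target Cyp4a14 was 1827 CPM where the other mice had 918 and 782 CPM. For Ppara itself mouse 323 was at 64.8 CPM, near mouse 257 at 62.2 CPM, with mouse 254 at 42.6 CPM. Among the Nts-/- mice, 319 was the lowest fed mouse for 7 members and 295 the lowest fasted mouse for 6. Without mouse 323, the Acot1 difference between fasted and fed Nts+/+ livers was 3.09 on the log2 scale.

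**Figure D2:**
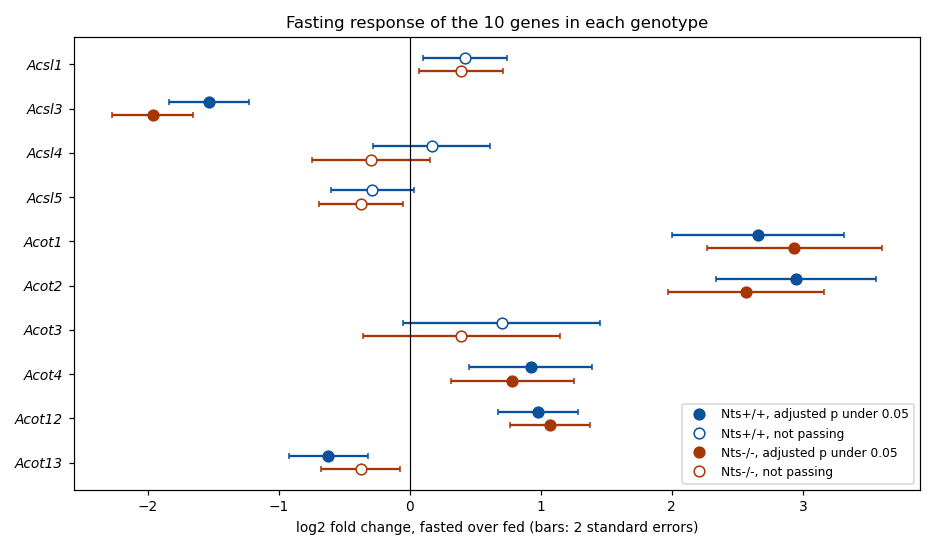
Log2 fold change of fasted over fed livers (horizontal axis) for each of the 10 genes in Nts+/+ (blue) and Nts-/- (brown) mice, with bars of 2 SE and filled points for an adjusted p under 0.05. Acot1 and Acot2 lie between 2.57 and 2.95, Acsl3 lies at -1.53 and -1.96, and the bars of both genotypes overlap for every gene.

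Per kb of the canonical transcript, Acsl1 was the most abundant of the 10 genes in fed livers, at 201.5 ± 35.5 CPM per kb in Nts+/+ and 183 ± 8.51 in Nts-/- mice, followed by Acsl5 at 116 ± 15.5 and 125 ± 13.7. Acot13, Acot3, Acot1 and Acot12 came next in both genotypes, and the ranges of Acot13 and Acot3, of Acot3 and Acot1 and of Acot1 and Acot12 overlapped. Acsl3, Acot4 and Acsl4 were lower, and Acot2 was last at 4.10 ± 1.35 and 4.64 ± 0.42 CPM per kb. In fasted livers Acot1 stood beside Acsl1, at 269 ± 49.6 against 269.6 ± 23.1 CPM per kb in Nts+/+ and 238 ± 69.1 against 240.3 ± 37.9 in Nts-/- mice. These neighbours did not differ beyond their spread. Acsl3 had the last place, at 3.89 ± 0.13 and 3.78 ± 0.86 CPM per kb. The order depends on the length used. Over the union of all annotated exons, 16262 bases instead of 5780 for Acsl1, Acsl1 came second in all 4 groups. It then stood after Acsl5 in fed and after Acot1 in fasted livers. By that length Acot3 also came before Acot13, and Acsl4 before Acsl3 and Acot4, in both fed groups, Acot2 before Acot13 in both fasted groups, and Acot12 before Acot1 in fed and before Acot3 in fasted Nts-/- livers.

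The sum of the 6 thioesterases separated fed from fasted mice and that of the 4 synthetases did not. The synthetases summed to 338 ± 28.5 CPM per kb in fed and 379 ± 42.5 in fasted Nts+/+ livers, and to 335 ± 20.5 and 350.2 ± 41.1 in Nts-/- livers, with overlapping ranges. The thioesterases summed to 203 ± 37.1 in fed and 495 ± 62.9 CPM per kb in fasted Nts+/+ livers, a 2.44-fold difference of means, and to 173 ± 9.01 and 434 ± 87.4 in Nts-/- livers, a 2.52-fold difference, without overlap. The ratio of synthetase to thioesterase transcripts went from 1.69 ± 0.24 to 0.78 ± 0.19 in Nts+/+ and from 1.94 ± 0.02 to 0.82 ± 0.10 in Nts-/- livers. These sums and ratios are descriptions with no test, and their size depends on the canonical length used.

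Within the thioesterases, Acot1 made up 20.4% ± 5.35 of the summed CPM per kb in fed and 54.0% ± 3.81 in fasted Nts+/+ livers, and 18.2% ± 4.98 and 54.2% ± 7.13 in Nts-/- livers. Acot13, with the largest mean share in fed livers by this length but not by the exon union, where Acot3 was above it, went from 36.7% ± 10.8 to 9.54% ± 1.53 and from 35.7% ± 4.68 to 11.3% ± 3.27. Among the synthetases, Acsl1 made up 59.5% ± 6.03 in fed and 71.4% ± 2.29 in fasted Nts+/+ livers and 54.8% ± 2.64 and 68.4% ± 2.89 in Nts-/- livers, and Acsl3 went from 3.37% ± 0.63 to 1.04% ± 0.14 and from 4.39% ± 0.27 to 1.09% ± 0.25. These shares, too, rest on the canonical length. By the exon union Acsl1 lay below Acsl5 in fed livers. The means were 71.6 against 85.0 CPM per kb in Nts+/+ and 65.1 against 91.7 in Nts-/- livers.

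**Figure D3:**
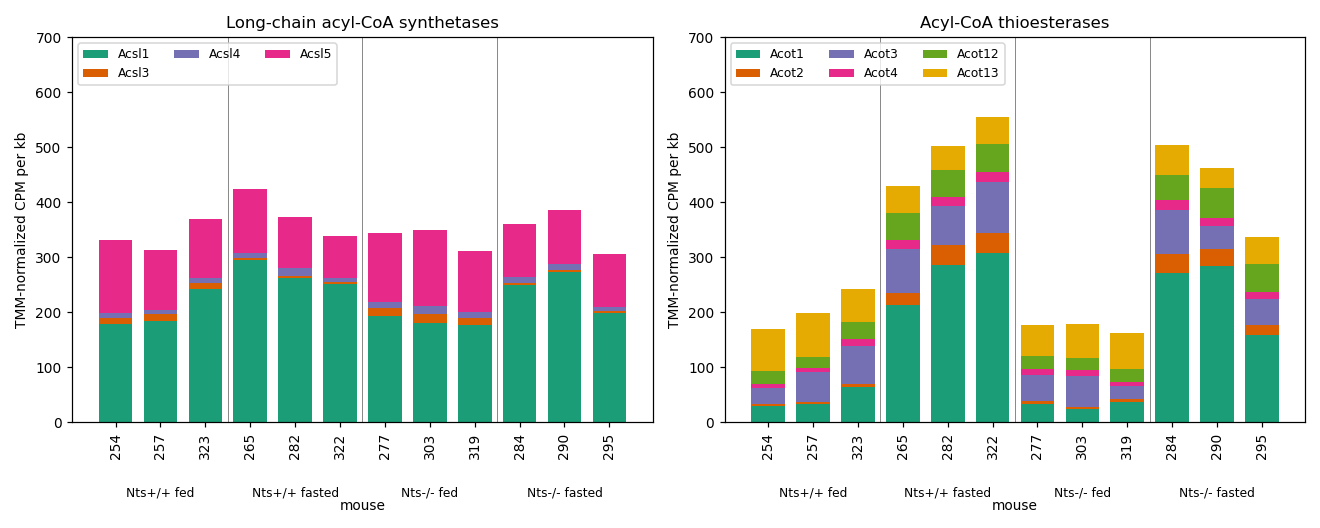
Stacked TMM-normalized CPM per kb (vertical axes, from 0) of the 4 synthetases (left) and the 6 thioesterases (right), 1 bar per mouse, with mouse numbers and groups on the horizontal axis. Thioesterase bars reach 162 to 242 in fed and 336 to 555 in fasted mice, with Acot1 forming the largest block when fasted, and synthetase bars stay between 305 and 424.

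No member differed between the genotypes by the test. In fed livers 0 of 10 passed an adjusted p of 0.05 in edgeR's quasi-likelihood test, as did 0 (0%) of all genes tested, of which 876 (6.34%) had an unadjusted p under 0.05. DESeq2 called 12 genes, none of them a member. Log2 differences of Nts-/- against Nts+/+ fed livers ran from -0.45 for Acot1 to 0.41 for Acsl4. Acsl3 had the smallest adjusted p of the members, 0.734 (edgeR), at 0.39 ± 0.15 and an unadjusted p of 0.0201, and was at 54.7, 62.5 and 51.3 CPM in Nts-/- against 41.9, 48.1 and 38.9 CPM in Nts+/+ mice. Acsl3 and Acsl4 were the members whose fed groups did not overlap, both with Nts-/- higher, where 4.81% of all genes tested were higher and 5.85% lower without overlap.

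In fasted livers again 0 of 10 members and 0 (0%) of all genes passed edgeR's test, with 684 genes (4.95%) at an unadjusted p under 0.05, none of them a member, and 1 gene called by DESeq2. The member differences ran from -0.54 for Acot3 to 0.02 for Acsl5, and the groups of all 10 members overlapped, beside 5.29% of all genes higher and 6.88% lower without overlap. An interval of 2 SE around the difference gives a rough range of sizes that remained possible. The SE was derived from the difference and the F statistic of edgeR's test, so sizes somewhat beyond the interval remained possible too. The interval was -0.79 to 0.44 for Acot1, -0.75 to 0.36 for Acot2 and -0.35 to 0.26 for Acsl3. For Acot12 it was -0.32 to 0.29 and for Acot3, the widest, -1.29 to 0.22. A difference between the fasting responses of the genotypes was not detected for any member either, with 0 (0%) of all genes called by edgeR, 663 (4.8%) at an unadjusted p under 0.05 and 2 called by DESeq2. Acsl3 came nearest at -0.43 ± 0.21, adjusted p = 0.897 and unadjusted p = 0.0611 (edgeR), and the values of the others ran from -0.46 for Acsl4 to 0.28 for Acot1.

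Further acyl-CoA synthetases were taken from a list of 20, of which 13 were tested. In Nts+/+ livers 5 rose and 5 fell with fasting, and in Nts-/- livers 4 rose and 5 fell, with 8 called in the same direction in both. Of all genes tested, 8.91% passed higher and 9.19% lower in Nts+/+ livers, and 7.7% and 9.14% in Nts-/- livers. Without mouse 282 the Nts+/+ count went from 10 to 5. The median log2 fold changes of 0.44 and 0.28 hide both directions. Slc27a1 (FATP1), a fatty acid transporter with synthetase activity, rose from 6.32 ± 1.43 to 29.1 ± 6.60 CPM in Nts+/+ and from 7.00 ± 0.88 to 33.2 ± 7.01 CPM in Nts-/- livers, log2 fold changes of 2.20 and 2.24. Slc27a2 (FATP2), the very long-chain synthetase and transporter of hepatocytes, rose by 1.18 and 1.45 from 959 and 878 CPM. Acsm3, a medium-chain synthetase of mitochondria, rose by 0.99 and 1.01, while its neighbour in the family Acsm1 fell by 1.33 and 1.12. Synthetases that feed cytosolic lipid synthesis fell too: Acss2, which makes acetyl-CoA from acetate, fell from 290.5 ± 162 to 51.6 ± 8.84 CPM in Nts+/+ and from 436 ± 256 to 60.8 ± 14.0 CPM in Nts-/- livers, and Aacs, which activates acetoacetate, fell from 56.5 ± 45.3 to 7.44 ± 3.39 CPM and from 105 ± 48.3 to 8.26 ± 2.38 CPM. All of these had an adjusted p of at most 0.0140 in edgeR's quasi-likelihood test.

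Of 15 further thioesterases 12 were tested, and 3 rose in Nts+/+ livers while 3 rose and 1 fell in Nts-/- livers. Beside them, 18.1% of all genes tested passed in either direction in Nts+/+ livers (8.91% higher, 9.19% lower). In Nts-/- livers 16.8% passed (7.7% higher, 9.14% lower). Acot8, a peroxisomal thioesterase of broad specificity, rose from 13.5 ± 2.23 to 28.3 ± 1.99 CPM and from 12.1 ± 0.91 to 30.5 ± 1.57 CPM, log2 fold changes of 1.07 and 1.34. Them4 rose by 0.79 and 0.81 (adjusted p = 0.0152 and 0.0138, edgeR). Acot5, another peroxisomal copy in the Acot cluster, had 0, 1.01 and 0 expected counts in the fed and 45.2, 55.2 and 23.5 in the fasted Nts+/+ mice, and 0, 1.01 and 0 against 29.3, 38.5 and 4.46 in the Nts-/- mice, so that no fold is given. Acot11 was the gene that fell in Nts-/- livers, at -0.99 (adjusted p = 0.0389), beside -0.66 (adjusted p = 0.145) in Nts+/+ livers by edgeR. In the Nts-/- mice this count of 4 went down to 1 without mouse 277 and in a fit of only the 6 mice compared. None of these further synthetases and thioesterases was called between genotypes.

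**Figure D4:**
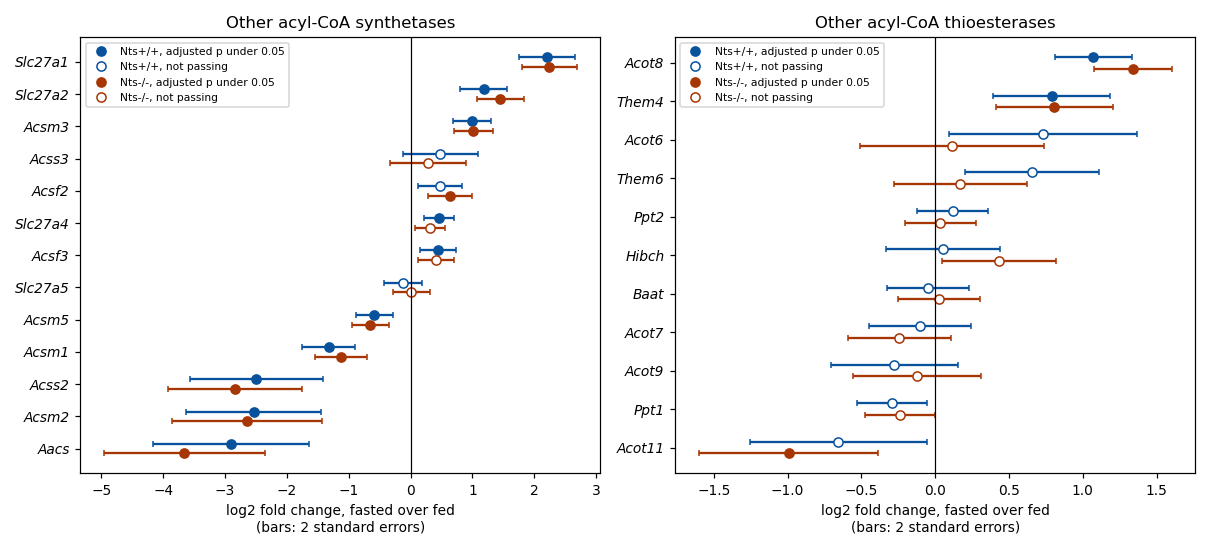
Log2 fold change of fasted over fed livers (horizontal axes) for 13 other acyl-CoA synthetases (left) and 11 other thioesterases (right) in Nts+/+ (blue) and Nts-/- (brown) mice, with bars of 2 SE and filled points for an adjusted p under 0.05. Slc27a1 is highest at 2.20 and 2.24 and Aacs lowest at -2.91 and -3.66, and Acot5 is left out because its fed libraries had at most 1.01 counts.

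Targets of PPARα, fatty acid oxidation genes among them, and genes of fatty acid synthesis were counted from further lists. Acss2 stood both in the lipogenic list and among the further synthetases, so its fall is counted in both. Of 26 PPARα targets, a list without the 10 members, 21 rose and 1, the fatty acid binding protein gene Fabp1, fell in Nts+/+ livers and 23 rose in Nts-/- livers, with medians of 1.10 and 1.35. Ehhadh, the peroxisomal bifunctional enzyme of β-oxidation, rose by 2.83 and 2.97 on the log2 scale. Acot1 and Acot2 lay above these medians, and Acot4 and Acot12 below them. Of 18 lipogenic genes 12 fell in Nts+/+ and 13 in Nts-/- livers, with medians of -1.57 and -1.72, and 4 and 2 of the 18 had a log2 fold change above 0. For both lists the shares of all genes tested were 8.91% higher and 9.19% lower in Nts+/+ livers, and 7.7% and 9.14% in Nts-/- livers. Srebf1, which encodes the lipogenic transcription factor SREBP-1, fell by 2.90 and 3.32, and Acly, which supplies cytosolic acetyl-CoA, fell by 2.28 and 2.85. The Acsl3 differences of -1.53 and -1.96 lay close to the lipogenic medians. No test was made of likeness to either list.

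Genes whose levels followed the members most closely were found by Pearson's r of log2 CPM over all 12 mice, as a description with no p. Such values join fed and fasted mice and share their libraries and depth, so r within the 6 fed and the 6 fasted mice is given too. Acot1 was matched best by Pex11a, a peroxisome proliferation gene, at r = 0.993 (0.894 within fed, 0.915 within fasted mice), and by the lipid droplet gene Fitm2 at 0.989 (0.941 and 0.828). Acot2 was matched by Grn (0.988, with 0.444 and 0.974) and by the mitochondrial transcription factor Tfb2m (0.988, with 0.871 and 0.972). Acot12 was matched by Mfsd7c (0.993, with 0.975 and 0.467) and by Slc27a2 (0.990, with 0.997 and 0.0550), so that r was high within fed but lower within fasted mice. Among the fed mice, mouse 323 stood apart for Acot12, at 145 CPM where the others were at 92.0 to 110 CPM. Acot4 was matched by Azi2 at 0.956 (0.916 and 0.704) and the glycerol kinase gene Gk at 0.950 (0.894 and 0.674), and Acot3 by 5730455P16Rik at 0.914 (0.903 and 0.912) and Agmo at 0.907 (0.887 and 0.893).

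Acot13 followed Pemt, the phosphatidylethanolamine methyltransferase gene, at r = 0.977 (0.897 within fed and 0.981 within fasted mice), and Habp2 at 0.968 (0.895 and 0.916). Acsl3 followed Paox at 0.985 (0.929 within fed, 0.229 within fasted mice). Acsl1 was matched by Myom2 (0.969, with 0.951 and 0.913) and the mitophagy receptor gene Bnip3l (0.943, with 0.940 and 0.951), and Acsl5 by the folate enzyme gene Aldh1l1 (0.950, with 0.930 and 0.983) and Gamt (0.926, with 0.883 and 0.819). Acsl4 was matched by the Toll-like receptor gene Tlr6 (0.919, with 0.900 and 0.934) and Phtf2 (0.888, with 0.853 and 0.922).

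Since 4 members rose in both genotypes, promoters of the members, from 250 bases before to 50 bases after the RefSeq start sites on GRCm38.p6, were read for the nuclear receptor core element AGGTCA on both strands. A promoter was held for 9 of the 10 members, Acot13 being the exception. The element was found in Acot3, Acot4 and Acot12 and not in the windows of Acot1, Acot2 or the 4 synthetases, where 18.1% of 27025 genes hold it by the same search. The Acot4 match begins 13 bases ahead of the start site, within the stretch chr12:84038346-84038378, and the Acot12 match 110 bases ahead of it, within chr13:91741391-91741436. Both are printed because these genes rose in both genotypes, on the plus strand, with the element, which reads on the minus strand, in capitals.
Acot4: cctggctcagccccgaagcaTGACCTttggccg
Acot12: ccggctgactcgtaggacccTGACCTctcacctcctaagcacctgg

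The full DR1 repeat that PPARα and its partner RXR bind, sought as AGGNCA, any 1 base and AGGNCA again, was in none of the 9 promoters and in 0.451% of all genes. A missing match says only that these letters are not in these windows, and a match is not a bound site.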

How the data were processed

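Liver RNA of 12 mice was sequenced, 3 per group of genotype and feeding state. The authors deposited 1 table of expected counts, an estimate of the reads of each gene with decimals, unscaled between mice, on GRCm38, and the submitters' processing notes name Trimmomatic and RSEM. Expected counts were rounded. In R 4.3.3, edgeR 4.0.16 kept 13812 genes (filterByExpr), scaled them by TMM and estimated group means, and tested contrasts by robust quasi-likelihood, with Benjamini-Hochberg adjustment over all genes tested and a threshold of 0.05. The 10 members and all lists were chosen with earlier results of these data known. Genes named are the members, up to 6 genes per list called in the same direction in both genotypes, and the 2 genes most like each member. Acot11 and Fabp1 were added after their values were seen. Nts, the cell type markers, Ppara, Acot6 and genes overlapping a member also stand outside this rule. Among the markers, Lyve1 is given because it rose where its sum did not. Some genes this rule names are not reported here. Alternatives were RLE and upper-quartile scaling, DESeq2 1.42.0, other filters and thresholds, a non-robust fit, only the 6 mice compared, and each mouse left out. The depth puts a floor of 3 counts at 0.0663 to 0.136 CPM, for counting error only. The mice are described as littermates, and which of them shared a litter is not given in the sources used here, so p-values measure the spread between these mice. Transcript lengths and coding sequences came from GENCODE on a later build and positions from the deposited table.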

Additional observations from a re-analysis of the deposited data

How the results depend on the processing

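No paired analysis was possible because replicates are mouse numbers that no groups share. Of the member fold changes under all alternatives, 656 kept their direction and side of the threshold, 10 lost and 3 gained a call, and 31 changed sign, all of the last on leaving out 1 mouse and none of them called. Normalization, filter and a non-robust fit changed no member's call. Members called in fasted against fed Nts+/+ livers went from 6 to 3 when a log2 change of 1 or more in size was also asked for, to 7 by DESeq2, and between 4 and 7 with a mouse left out; in Nts-/- livers from 5 to 4, 6 and between 4 and 5. All genes called went from 2501 to 911 with that fold in Nts+/+ livers, and to between 1224 (without mouse 282) and 2418 with a mouse left out; in Nts-/- livers from 2326 to 915, and to between 1358 (without mouse 277) and 2631. Between genotypes, all genes called in fed livers were 12 by DESeq2, 1 with no filter and 0 to 2 with a mouse left out; in fasted livers 1 by DESeq2 and 1 with only the 6 mice compared; for the difference of the responses 2 by DESeq2 and 0 to 1 with a mouse left out. A fold minimum by construction cannot raise a count. The cause of the other moves was not tested.

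With 1 mouse left out in turn, the log2 values that changed sign ran as follows. Acsl4, fasted against fed Nts+/+: -0.14 to 0.35. Nts-/- against Nts+/+, fed: Acsl1 -0.22 to 0.0167, Acot2 -0.00594 to 0.47, Acot3 -0.51 to 0.0592, Acot4 -0.22 to 0.36 and Acot12 -0.25 to 0.10. Nts-/- against Nts+/+, fasted: Acsl3 -0.25 to 0.0674, Acsl4 -0.24 to 0.26, Acsl5 -0.11 to 0.18, Acot1 -0.33 to 0.0474, Acot2 -0.43 to 0.0237, Acot12 -0.0859 to 0.0484 and Acot13 -0.11 to 0.16. Difference of the fasting responses: Acsl1 -0.18 to 0.0940, Acsl5 -0.22 to 0.0679, Acot1 -0.15 to 0.50, Acot4 -0.48 to 0.10 and Acot12 -0.11 to 0.23.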
